A study of Mus with 6 samples.

Results

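The genes described here are 8 markers of ductal epithelium, among them 4 keratins, in pancreatic tumors of obese and lean mouse hosts. They were chosen by Ensembl gene ID from a fixed list: Krt7, Krt8, Krt18, Krt19, Cdh1, Epcam, Cldn4 and Muc1. Earlier results of these data were known when the list was drawn up. All 8 were among the 15646 genes of the count table, and all 8 were among the 14348 genes kept by the filter on low counts. The tumors came from KPC1199, a mouse pancreatic ductal adenocarcinoma line, implanted in the pancreas of ob/ob mice (obese group, 3 libraries) or of lean wild-type (WT) mice (lean group, 3 libraries). Both groups thus carried the same tumor line, and the results describe tumors of that line only. The libraries are of bulk tumor tissue, so RNA of host cells may be among the counts. The ob/ob mice lack functional leptin, so leptin deficiency and obesity cannot be told apart in this design. The labels used here give no age, sex, strain or time after implantation, and none says whether libraries of a group came from separate mice. The p-values below therefore measure the spread between these libraries, which may be technical in part.

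Ductal cells of the pancreas are simple epithelium. Their cytoskeleton is built from keratins, which assemble only as pairs of a type II chain (Krt7, Krt8) and a type I chain (Krt18, Krt19). Their membranes carry E-cadherin (Cdh1) at adherens junctions, claudins at tight junctions, the adhesion molecule Epcam along the sides of the cell and the mucin Muc1 at the surface facing the lumen. Ductal adenocarcinoma keeps much of this program, and keratins and Epcam are commonly used to mark its tumor cells.

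The libraries held 7122533 to 8521244 counts. Values are given as CPM, counts relative to library size after scaling by trimmed-mean (TMM) factors, and each library is named by its group and the number in its title. On the second principal component of all genes, obese 3 lay at -37.7 and the other 5 libraries between -6.45 and 17.5, so results that rest on this library are given without it as well. Of all genes tested, 20.8% differed between hosts at an adjusted p under 0.05 (edgeR quasi-likelihood test), 10.3% higher and 10.6% lower in obese hosts. Scaled by total counts only, the balance of calls over all genes moved from 1474 higher and 1517 lower to 1797 higher and 1170 lower, while the calls of the 8 genes were the same.

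The ductal genes did not move as a block. Relative to lean hosts, tumors of obese hosts had 3.18-fold less Cldn4, 2.25-fold less Epcam and 1.58-fold less Krt7 RNA, and 1.34-fold more Krt19 RNA. Krt8, Krt18, Cdh1 and Muc1 did not pass the test. Thus 4 of 8 were called, 3 lower and 1 higher, against the background of 20.8% called over all genes. This comparison is a description, since the genes were chosen with earlier results of these data known. Lean and obese libraries were fully apart for these 4 genes, 3 with obese below and 1 with obese above, and overlapped for the other 4. Over all genes tested, 40.3% were fully apart, 20.0% with obese below and 20.3% with obese above, so a count of 4 in 8 is near that background. The median log2 fold change was -0.20 over the 8 genes and 0.01 over all genes tested. The median size of the change without its sign was 0.34 over the 8 genes and 0.32 over all. In tumor tissue read as bulk RNA, fewer cells of a type and less RNA per cell cannot be told apart.

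**Figure D1:**
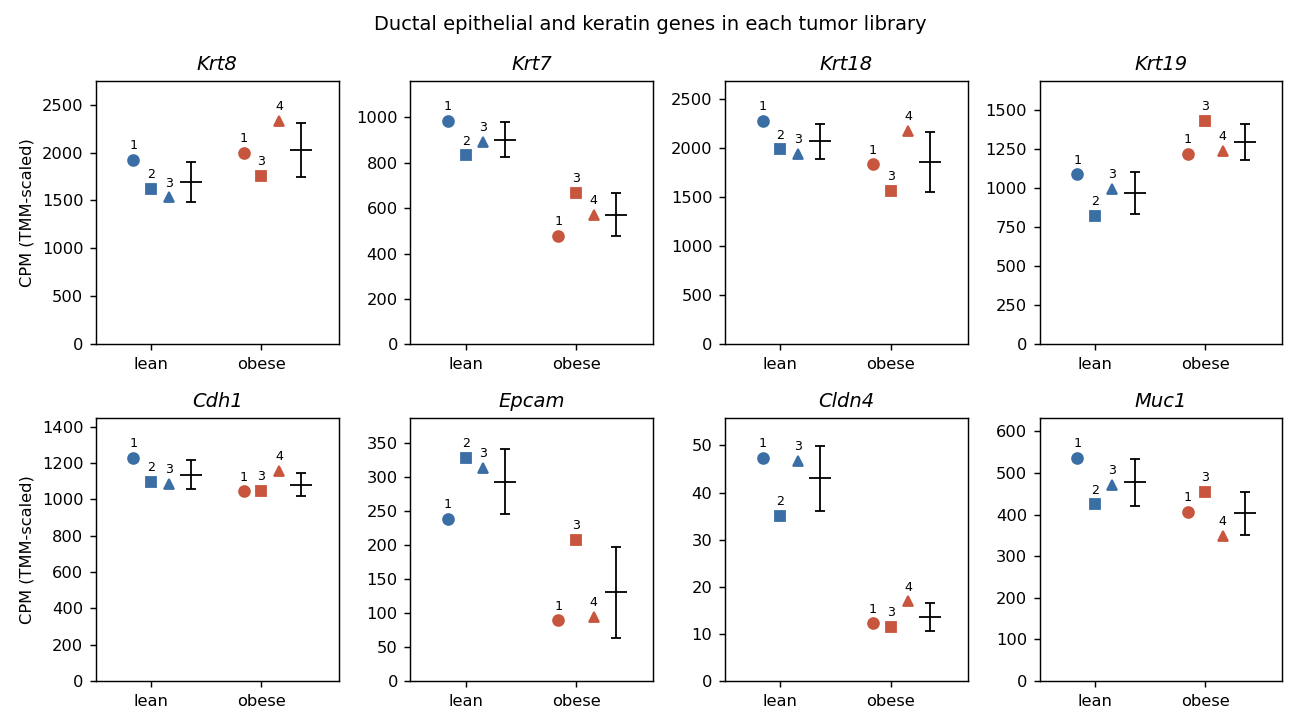
Scaled level (CPM, vertical axis from 0) of each of the 8 genes in each tumor library of lean and obese hosts. Points are single libraries with their number, and the bar beside each group is the mean with its SD. The groups are separate for Krt7, Epcam and Cldn4, which were lower in obese hosts, and for Krt19, which was higher.

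Among the type II keratins, Krt7, a keratin typical of ducts and other glandular lining cells, fell in obese hosts (ENSMUSG00000023039.17; RefSeq, GRCm38, chromosome 15, 101412403 to 101427806). It was at 984, 832 and 891 CPM in lean 1, 2 and 3 and at 477, 668 and 569 CPM in obese 1, 3 and 4. Every obese library lay below every lean one, with obese 3 the nearest to the lean range. The group means were 902 ± 76.2 and 571 ± 95.2 CPM (SD, n = 3 each), and the log2 fold change was -0.66 (standard error, SE, 0.13, 95% interval -0.94 to -0.38, edgeR adjusted p = 0.00733). This call held without each library in turn, with log2 fold changes of -0.78 to -0.55. Of the genes tested, 9.65% had a lower log2 fold change.

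Krt8, the main type II keratin of simple epithelia, had the opposite sign and did not pass the test (ENSMUSG00000049382.10; chromosome 15, 101996711 to 102004342). Its levels were 1926, 1622 and 1532 CPM in lean 1, 2 and 3 and 1994, 1760 and 2328 CPM in obese 1, 3 and 4. The groups overlapped, since lean 1 was above obese 3. The log2 fold change was 0.26 (SE 0.13, 95% interval -0.03 to 0.55, edgeR adjusted p = 0.175). It was 0.36 without obese 3 (edgeR adjusted p = 0.051) or lean 1 (adjusted p = 0.0965) and 0.15 without obese 4 (adjusted p = 0.485). RefSeq lists a pseudogene named for this gene, Krt8-ps, and reads from a near-identical copy may not be told apart from those of Krt8. The shares and ratios below that include Krt8 rest on the same counts. Pseudogenes were sought by the name of each gene only, so copies listed under other names would be missed.

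Among the type I keratins, Krt19, a keratin of the ductal lineage and a classical ductal marker, was the one gene of the 8 called higher (ENSMUSG00000020911.14; chromosome 11, 100140810 to 100145926). It was at 1089, 823 and 994 CPM in lean 1, 2 and 3 and at 1223, 1431 and 1240 CPM in obese 1, 3 and 4. All obese libraries were above all lean ones, with obese 3 the highest. The means were 969 ± 135 and 1298 ± 115 CPM (SD, n = 3 each), and the log2 fold change was 0.42 (SE 0.12, 95% interval 0.15 to 0.69, edgeR adjusted p = 0.0334). The direction was kept without each library in turn, but among these 6 fits the call was kept only without lean 1 (0.51, adjusted p = 0.0265). It was lost without obese 3 (0.35, adjusted p = 0.0531), obese 4 (0.45, adjusted p = 0.0569), obese 1 (0.46, adjusted p = 0.0586), lean 3 (0.44, adjusted p = 0.0793) and lean 2 (0.31, adjusted p = 0.138).

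Krt18, the usual partner of Krt8, did not pass the test (ENSMUSG00000023043.7; chromosome 15, 102028216 to 102032026). Its levels were 2271, 1984 and 1940 CPM in lean 1, 2 and 3 and 1830, 1559 and 2169 CPM in obese 1, 3 and 4. The groups overlapped, because obese 4 lay above lean 2 and lean 3. The log2 fold change was -0.16 (SE 0.13, 95% interval -0.44 to 0.13, edgeR adjusted p = 0.419). It was -0.04 without obese 3 (edgeR adjusted p = 0.835), -0.08 without lean 1 (adjusted p = 0.714) and -0.29 without obese 4 (adjusted p = 0.159), so its size rests on single libraries. Krt8 and Krt18 lie next to each other in the genome although they belong to different keratin types. In the RefSeq table, 23873 bases and 2 other genes, Gm36026 and Gm41404, separate them.

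**Figure D2:**
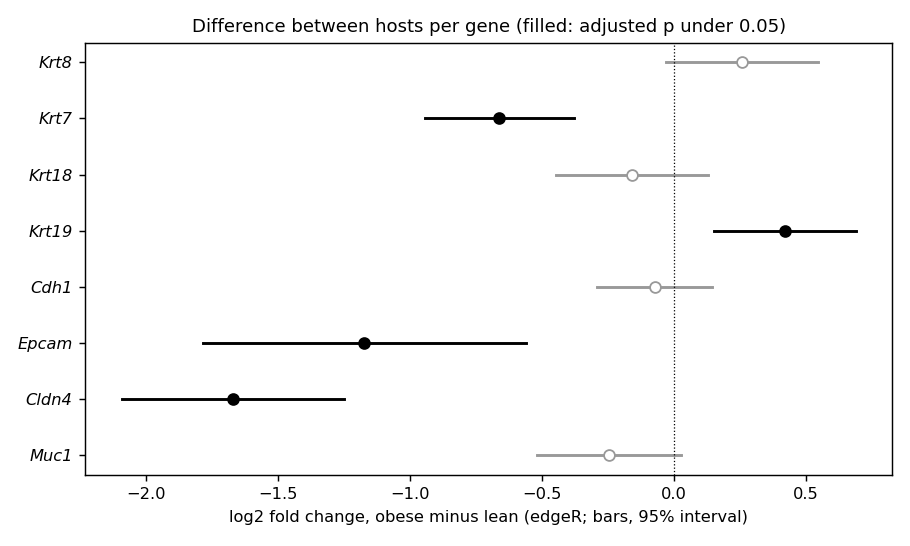
Log2 fold change in obese minus lean hosts for each gene (horizontal axis; 0 is no difference), with bars for the 95% interval. Filled black points have an edgeR adjusted p under 0.05. Cldn4, Epcam and Krt7 lie at -1.67, -1.17 and -0.66 and Krt19 at 0.42, while the intervals of the other 4 genes include 0.

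The summed level of the 4 keratins overlapped between the hosts, while its make-up shifted. Together they stood at 6269, 5261 and 5357 CPM in lean 1, 2 and 3 and at 5523, 5417 and 6306 CPM in obese 1, 3 and 4, or 5629 ± 556 and 5749 ± 486 CPM (SD, n = 3 each). As a share of the keratin counts of a library, Krt7 gave 15.7%, 15.8% and 16.6% in lean 1, 2 and 3 and 8.64%, 12.3% and 9.02% in obese 1, 3 and 4. Krt8 gave 30.7%, 30.8% and 28.6% in the lean and 36.1%, 32.5% and 36.9% in the obese libraries. For each of these keratins the shares in the groups did not overlap. The shares restate the counts of the single genes and are not separate observations. No background was computed for shares, but 40.3% of all genes tested were fully apart in their levels. Of the type I chains, Krt18 gave 36.7% ± 0.856 in lean and 32.1% ± 2.95 in obese tumors, and Krt19 gave 17.2% ± 1.46 and 22.7% ± 3.41 (SD, n = 3 each). The 4 shares of a library make up one whole, so a lower share of some keratins brings a higher share of others.

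Both type II chains together nevertheless took a nearly constant share of the keratin counts. This share was 46.4%, 46.7% and 45.2% in lean 1, 2 and 3 and 44.7%, 44.8% and 45.9% in obese 1, 3 and 4, and the groups overlapped. Its whole range over the 6 libraries was 44.7% to 46.7%, and the 95% Wilson interval of a single library reached at most 0.508 percentage points to either side. Within the type II share, the part from Krt7 was thus larger in lean than in obese tumors, and the part from Krt8 was smaller. Krt8 gave more of the counts than Krt7 in both groups. These shares are of read counts, which also depend on transcript length, so they compare libraries and not the amounts of the keratins. The shares were looked at after the values of the single genes were known and carry no test, and their intervals cover counting error only.

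**Figure D3:**
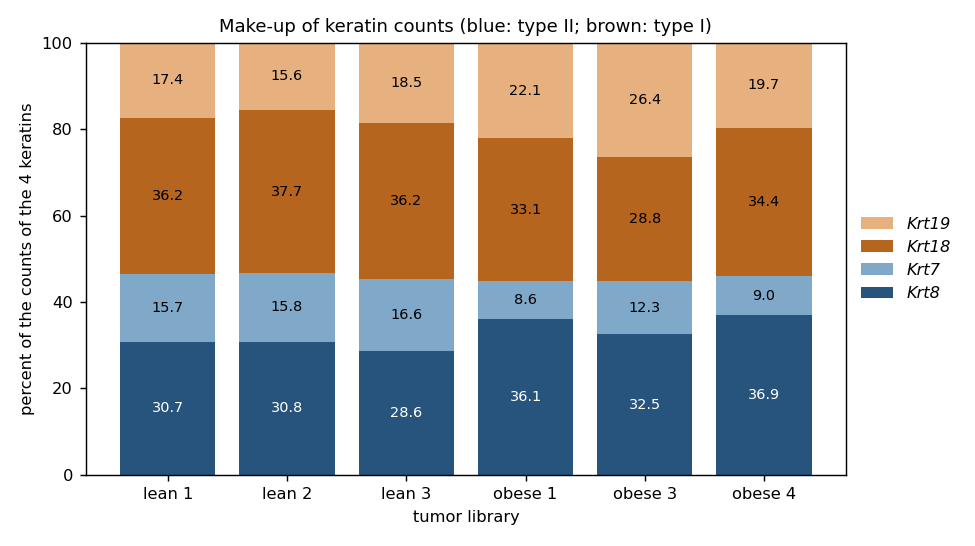
Percent of the counts of the 4 keratins (vertical axis) that came from each keratin, 1 bar per tumor library. The blue segments (type II, Krt8 and Krt7) together reach 44.7% to 46.7% in every library, while Krt7 alone shrinks from at least 15.7% in lean to at most 12.3% in obese tumors.

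Ratios of 2 genes within a library need no scaling between libraries, and 5 of them were compared between hosts. The Krt8 count was 0.848, 0.818 and 0.790 times the Krt18 count in lean 1, 2 and 3 and 1.09, 1.13 and 1.07 times in obese 1, 3 and 4. This was the ratio with the least spread inside each group, and its groups were well apart: on the log2 scale the means were -0.29 ± 0.05 and 0.13 ± 0.04 (SD, n = 3 each), a difference of 0.42. The exact permutation test (two-sided) gave p = 0.1, the smallest value that 3 against 3 libraries allow, and 0.125 after adjustment over the 5 ratios. So although neither partner passed the test alone, the balance between them was above that of every lean library in each obese library. Such full separation, in either direction, was also seen in 38.5% of count ratios over all pairs of genes tested. The interval of each gene alone allows a shift in Krt8, in Krt18 or in both.

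The other 3 keratin ratios were also fully apart between the groups. The 4 keratin ratios are tied to each other, since any 3 of them fix the fourth, and are not separate observations. Over all pairs of genes tested, 38.5% of count ratios were fully apart between the hosts, so the separation alone does not set the keratins apart from other genes. Krt7 counts were 0.903, 1.01 and 0.897 times those of Krt19 in lean 1, 2 and 3 and 0.390, 0.467 and 0.459 times in obese 1, 3 and 4, a log2 difference of -1.10 or 2.14-fold. Within type II, the ratio of Krt7 to Krt8 was 0.511, 0.513 and 0.582 in the lean and 0.239, 0.379 and 0.244 in the obese libraries (log2 difference -0.93). Within type I, the ratio of Krt19 to Krt18 was 0.480, 0.415 and 0.512 in the lean and 0.668, 0.918 and 0.572 in the obese libraries (log2 difference 0.59). Each of these had p = 0.1 and an adjusted p of 0.125 (exact permutation test), and in the latter 2 ratios obese 3 stood away from obese 1 and obese 4. Without obese 3 the log2 differences were -1.14 for Krt7 to Krt8 and 0.40 for Krt19 to Krt18.

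**Figure D4:**
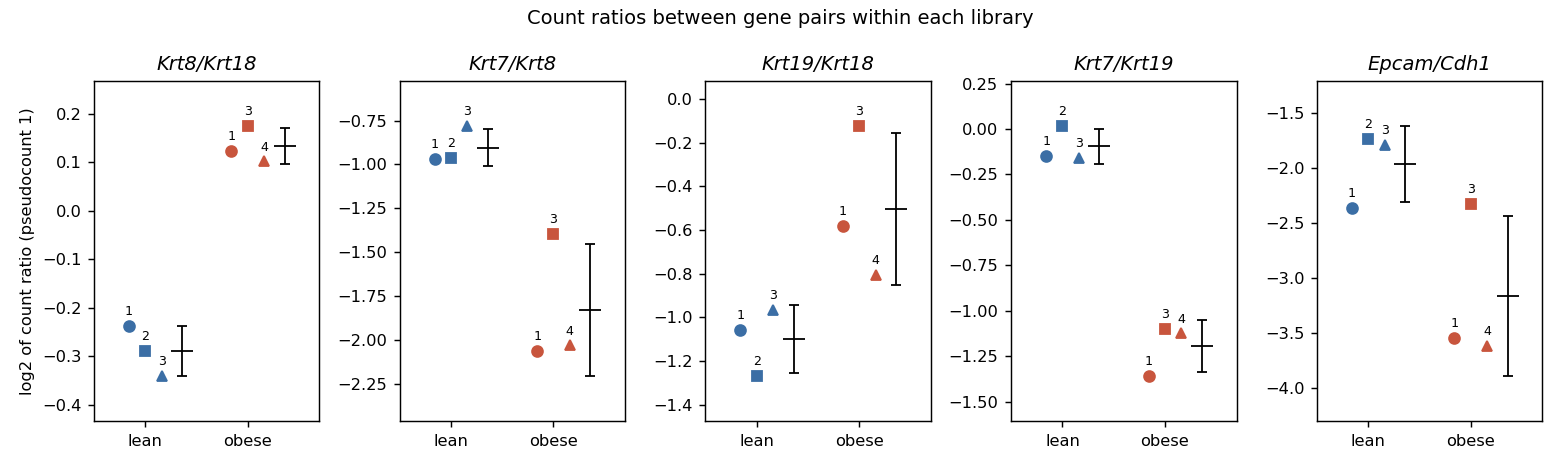
Log2 of the ratio of counts of 2 genes in the same library (vertical axes, which differ between panels and do not start at 0), for lean and obese hosts. Points are libraries with their number, and bars give the mean and SD of a group. The groups are separate in the 4 keratin ratios, and in the ratio of Epcam to Cdh1 obese 3 lies just above lean 1.

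Of the adhesion molecules, Epcam fell and Cdh1 did not pass the test. Epcam, which mediates contacts between epithelial cells and marks most carcinomas (ENSMUSG00000045394.9; chromosome 17, 87635979 to 87651127), was at 239, 328 and 313 CPM in lean 1, 2 and 3. In obese 1, 3 and 4 it was at 89.0, 208 and 93.8 CPM. The groups did not overlap, but obese 3 was close to lean 1 and far from the other obese libraries. The means were 294 ± 47.9 and 130 ± 67.4 CPM (SD, n = 3 each), and the log2 fold change was -1.17 (SE 0.28, 95% interval -1.78 to -0.56, edgeR adjusted p = 0.016). Without obese 3 the log2 fold change was -1.68 (edgeR adjusted p = 0.000105). The call was lost without obese 1 (-0.96, adjusted p = 0.0516), lean 3 (-1.12, adjusted p = 0.0563) or lean 2 (-1.09, adjusted p = 0.0695), and in edgeR's robust fit, which gives genes with outlying spread a weaker prior (-1.17, adjusted p = 0.0951).

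Cdh1 encodes E-cadherin, the adhesion receptor of adherens junctions (ENSMUSG00000000303.12; chromosome 8, 106603350 to 106670247). It had the least variable levels of the 8 genes: 1228, 1094 and 1085 CPM in lean 1, 2 and 3 and 1043, 1044 and 1155 CPM in obese 1, 3 and 4. The groups overlapped, since obese 4 was above lean 2 and lean 3. The log2 fold change was -0.07 (SE 0.10, edgeR adjusted p = 0.64), with a 95% interval of -0.29 to 0.15. Leaving out each library gave -0.12 to -0.01, and it was -0.04 without obese 3. The ratio of Epcam to Cdh1 counts was 0.195, 0.300 and 0.289 in lean 1, 2 and 3 and 0.0853, 0.199 and 0.0812 in obese 1, 3 and 4. These groups overlapped, because obese 3 lay just above lean 1, and the log2 difference of -1.20 had an exact permutation p = 0.2 (adjusted p = 0.2). Without obese 3 it was -1.62.

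Cldn4, a claudin that tightens the paracellular barrier and is abundant in many pancreatic carcinomas, showed the greatest change of the 8 genes (ENSMUSG00000047501.3; chromosome 5, 134945123 to 134946934). It had 399, 247 and 373 counts in lean 1, 2 and 3 and 104, 94 and 140 in obese 1, 3 and 4, or 47.4, 35.1 and 46.7 CPM against 12.2, 11.5 and 16.9 CPM. The highest obese library thus stood well below the lowest lean one, and obese 3 lay close to obese 1 here. The means were 43.0 ± 6.91 and 13.5 ± 2.93 CPM (SD, n = 3 each), and the log2 fold change was -1.67 (SE 0.19, 95% interval -2.09 to -1.25, edgeR adjusted p = 0.00114). Leaving out each library gave -1.86 to -1.56 with adjusted p-values of 0.000803 to 0.00791. Of the genes tested, 161 (1.12%) had a lower log2 fold change. In a test against a change of 1.5-fold, chosen after the data were seen, Cldn4 was the only gene of the 8 to pass (edgeR adjusted p = 0.00931).

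Muc1, a transmembrane mucin of the luminal surface that is prominent in pancreatic ductal tumors, did not pass the test (ENSMUSG00000042784.9; chromosome 3, 89229056 to 89233381). Its levels were 536, 424 and 471 CPM in lean 1, 2 and 3 and 406, 454 and 349 CPM in obese 1, 3 and 4. The groups overlapped, since obese 3 was above lean 2. The log2 fold change was -0.24 (SE 0.12, 95% interval -0.52 to 0.03, edgeR adjusted p = 0.177). Without obese 3 it was -0.33 (edgeR adjusted p = 0.0702), and without obese 4 or lean 1 it was -0.15 (adjusted p = 0.453 and 0.434).

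**Figure D5:**
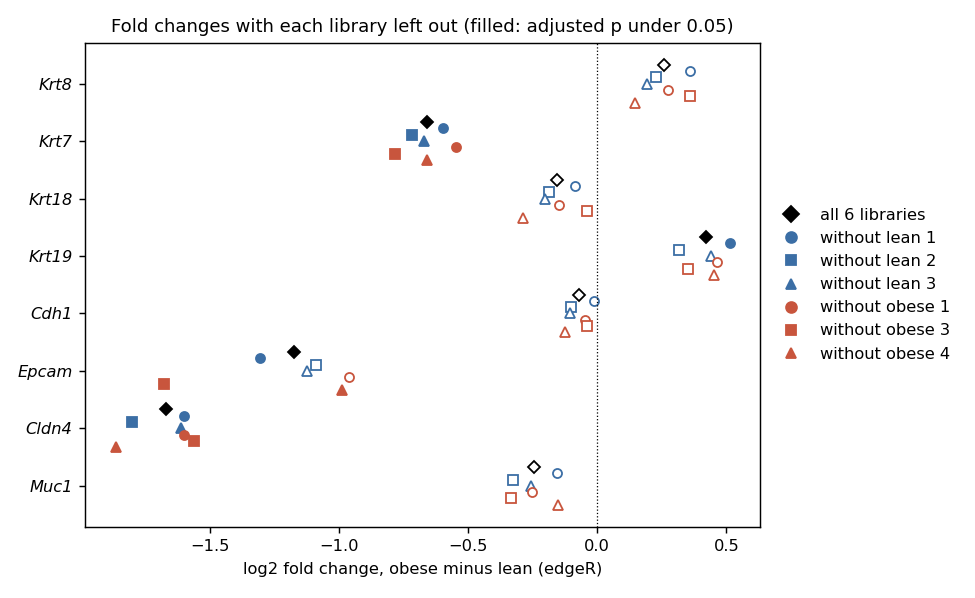
Log2 fold change in obese minus lean hosts (horizontal axis) for each gene with all 6 libraries and with each library left out. Filled symbols have an edgeR adjusted p under 0.05. Krt7 and Cldn4 stay filled throughout, Krt19 is filled with all libraries and without lean 1, and Epcam moves furthest to the left without obese 3.

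Over the 8 genes, the count of calls depended on the libraries included. It was 4 with all 6 libraries and without lean 1, 3 without obese 3 or obese 4, and 2 (Krt7 and Cldn4) without lean 2, lean 3 or obese 1. The calls over all genes moved as well, from 2991 of 14348 tested with all libraries. They were 1179 of 14748 without lean 2, 1541 of 14760 without lean 3 and 1461 of 14725 without obese 1. Without lean 1, obese 3 and obese 4 they were 2624 of 14704, 3066 of 14720 and 1956 of 14780. The lower member counts are thus not particular to these genes. Each of the 8 genes kept the sign of its log2 fold change under the 15 other choices of scaling, filter, test, block and library that were run. In the RefSeq table of GRCm38.p6, none of the 8 gene spans overlapped the span of another listed gene.

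The genes most like the 8 in their pattern were sought over all genes tested, by Pearson's r over the 6 libraries with the mean of the centred log2 CPM of the 8. This mean ranged from 0.12 to 0.31 over lean libraries and from -0.33 to -0.13 over obese ones. The first was ENSMUSG00000035125.10 (r = 0.995), with 19.5 ± 2.39 CPM in tumors of lean and 13.1 ± 1.37 CPM in those of obese hosts (SD, n = 3 each). The second was ENSMUSG00000030659.14 (r = 0.993), with 53.3 ± 4.84 and 32.0 ± 2.51 CPM (SD, n = 3 each). The mean leans on Cldn4 and Epcam: the mean log2 fold change was -0.41 over the 8 genes and -0.08 over the 6 without these, and Krt8 and Krt19 have the opposite sign. The r values are a description: they are the highest of all genes tested, and the 6 points fall into the 2 hosts.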

How the data were processed

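The 6 tumor libraries were analysed from the raw gene counts that the authors deposited in a single table. Per the labels' protocols, total RNA was depleted of ribosomal RNA before library construction. The build was GRCm38 and the tools CASAVA, STAR and Subread, per the submitters' processing notes; their versions and settings, and how strand was treated in counting, are not stated. The lowest row sum was 11, so scarce genes had been removed already. Titles that begin with OB gave the obese group. The remaining titles begin with ND, and these libraries were assigned to lean hosts because the design text names no other group.

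The test was edgeR 4.0.16 (R 4.3.3) with its default expression filter (minimum count 10, minimum total 15; 14348 genes kept), TMM factors, quasi-likelihood F test (two-sided, no covariates) and Benjamini-Hochberg adjustment over all genes tested. The SE is the log2 fold change divided by the square root of F, and its 95% interval uses the fit's degrees of freedom. Ratios used a pseudocount of 1 and an exact permutation test. Alternatives were other scaling, filters and pseudocounts, a robust fit, limma-voom (limma 3.58.1), DESeq2 1.42.0, the title number as a block, each library left out and a test against 1.5-fold.

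The named genes are the 8 members, whatever their values, and the 2 genes most like their mean. The members and lists were chosen with earlier results of these data known. Symbols of the 8 genes came with their IDs. Of 49997 rows in the RefSeq table, 0 carried an Ensembl ID, so lists of other epithelial, mesenchymal and cell type markers, fixed by symbol, were not looked up. Transcript lengths were not used here, so shares and ratios of counts compare libraries and not the amounts of RNA of different genes.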

Additional observations from a re-analysis of the deposited data

How the results depend on the processing

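Counts of called members were 4 (3 lower, 1 higher) with RLE, upper-quartile or no scaling factors, no filter, a CPM filter, DESeq2 and limma-voom, and 3 in the robust fit. Over the whole table, these settings called 2903 (no filter) to 3099 genes (DESeq2), with 3006 in the robust fit. Leaving out 1 library gave 2 to 4 called members, 0 to 1 of them higher and 2 to 3 lower, and 1179 to 3066 genes over the whole table. Title numbers 1 and 3 occur in both groups. With each group's mean taken off, r was 0.090 for lean 1 with obese 1 and 0.074 for lean 3 with obese 3. Both values lay above those of all lean and obese libraries with unlike numbers, which ran from -0.13 to 0.066. All of these values were small, so whether a shared number marks a pairing was not settled. With the replicate block, 2087 genes and 3 members were called, 3 lower and 0 higher by edgeR. Krt19 (log2 fold change 0.35, edgeR adjusted p = 0.107) was the 1 member higher at an unadjusted p under 0.05. No other library shares the number of lean 2 or obese 4. The host difference in the blocked fit thus came from the libraries numbered 1 and 3 alone. The test against 1.5-fold, chosen after seeing the data, left 213 genes and 1 member, 1 lower and 0 higher (0 higher also at an unadjusted p under 0.05). The 5 ratios kept their direction with each library left out and with pseudocounts of 0 and 5. The range without 1 library was 0.40 to 0.45 for Krt8/Krt18, -1.14 to -0.81 for Krt7/Krt8, 0.40 to 0.75 for Krt19/Krt18, -1.14 to -1.02 for Krt7/Krt19 and -1.62 to -0.98 for Epcam/Cdh1. The cause of these movements was not tested. With 3 libraries a group, the exact test of a ratio cannot pass 0.05, and Cldn4, with 94 to 399 counts a library, has the least depth of the 8 genes.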
